A study of Mus musculus with 96 samples.

Results

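Striatal interneurons can be followed in tissue RNA by a small set of transcripts, and 8 of them are described here: Chat, Slc18a3, Slc5a7, Nos1, Sst, Npy, Pvalb and Calb2. They were chosen by symbol, and all 8 were found in each of the 3 deposited tables, out of 15260 symbols that the 3 tables share and 16221 symbols in any of them. Most neurons of the striatum are medium spiny projection neurons, and the interneurons are a small minority that act within the striatum. Cholinergic interneurons are large, tonically active cells that release acetylcholine. Other classes release GABA and are told apart by nitric oxide synthase with the peptides somatostatin and neuropeptide Y, by the calcium-binding protein parvalbumin, or by calretinin. In Huntington's disease, caused by an expanded CAG repeat in the huntingtin gene, medium spiny neurons are the cells best known to be lost, and several interneuron classes are known as relatively spared.

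The RNA came from the striatum of mice that, per the labels, had all received an adeno-associated virus there, whose cargo the labels do not name. Q175 mice, in which the mouse huntingtin gene carries an expanded repeat, were set against WT mice at 2, 6 and 12 months, both on C57BL/6J. R6/2 mice, which carry a fragment of the human gene as a transgene, were set against NCAR mice at 1, 2 and 3 months, both labelled CBA x C57BL/6. Each of these 12 groups of mice gave 4 IP libraries, of RNA recovered by immunoprecipitation of a target that the labels do not name, and 4 input libraries, of RNA before it, so that there were 24 groups and 96 libraries. The labels give no sex. Whether each library of a group is from its own mouse is not stated, and p-values measure only the spread between these libraries.

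Depth ran between 27.12 and 84.21 M reads a library; the IP median was 54.7 M and the input median 34.78 M. Levels below are CPM (reads divided by the scaled library size in M), given per library or as the mean of 4 libraries, and changes are log2 differences ± SE from limma. "Called" means that the p-value adjusted over all genes tested by the Benjamini-Hochberg method was under 0.05. The summed level of 20 astrocyte marker genes was 32600 to 82100 CPM in IP libraries and 4710 to 9590 CPM in input libraries. The medium spiny neuron list, with 23 genes measured, summed to 3270 to 13200 CPM in IP and 7310 to 25500 CPM in input, so that both RNA types held transcripts of the principal striatal neuron. In whole-tissue RNA, fewer cells of a type and less RNA per cell cannot be told apart.

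The 3 cholinergic genes serve 1 transmitter. Chat encodes choline acetyltransferase, which makes acetylcholine. Slc18a3 encodes the vesicular acetylcholine transporter, and Slc5a7 the high-affinity transporter that takes choline back into the terminal. In the mm10 annotation of GENCODE, Chat spans chr14:32408203-32465989 on the minus strand. Slc18a3, at chr14:32462438-32464850 on the same strand, is a single exon of 2413 bases that lies within that span, 956 bases from the next Chat exon upstream and 395 bases from the next one downstream. The genes share 0 exon bases, so that reads counted over exons can be assigned to 1 of them. Slc5a7 is at chr17:54273590-54299034 on the minus strand.

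Among the GABAergic markers, Nos1, the neuronal nitric oxide synthase, is at chr5:117781032-117958840 on the plus strand. Sst, the somatostatin precursor, is at chr16:23889573-23890958 on the minus strand, and Npy, the neuropeptide Y precursor, at chr6:49822710-49829507 on the plus strand. Pvalb, the parvalbumin gene of fast-spiking interneurons, is at chr15:78191114-78206400 on the minus strand. Calb2, the calretinin gene, is at chr8:110137502-110168210 on the minus strand.

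The promoters are shown for the cholinergic genes, all called lower in R6/2 input RNA at 2 and 3 months. They are also shown for Sst and Npy, which moved together from library to library. Each runs from 250 bases before to 50 bases after the annotated start, 5′ to 3′ on the strand of the gene, from RefSeq on GRCm38.p6, and capitals mark a match, on either strand, to one of 4 motifs: the LIM homeodomain core TAATTA, the cAMP response element TGACGTCA, the TATA box TATAAA and the E-box CACGTG. No match says only that these letters are not in the window. The windows are chr14:32465860-32466159 for Chat, chr14:32464801-32465100 for Slc18a3, chr17:54298985-54299284 for Slc5a7, chr16:23890795-23891094 for Sst (all minus strand) and chr6:49822460-49822759 for Npy (plus strand).
Chat: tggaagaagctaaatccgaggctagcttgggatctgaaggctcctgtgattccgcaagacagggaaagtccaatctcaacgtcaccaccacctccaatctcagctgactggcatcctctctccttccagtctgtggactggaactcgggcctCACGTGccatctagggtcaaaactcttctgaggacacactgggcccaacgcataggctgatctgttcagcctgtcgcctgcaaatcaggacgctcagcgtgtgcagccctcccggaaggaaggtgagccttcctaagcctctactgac
Slc18a3: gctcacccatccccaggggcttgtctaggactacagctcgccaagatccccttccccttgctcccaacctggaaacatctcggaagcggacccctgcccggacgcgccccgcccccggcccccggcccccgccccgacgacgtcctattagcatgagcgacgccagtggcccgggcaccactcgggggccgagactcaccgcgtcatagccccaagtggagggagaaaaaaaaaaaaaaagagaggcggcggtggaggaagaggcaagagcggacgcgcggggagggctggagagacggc
Slc5a7: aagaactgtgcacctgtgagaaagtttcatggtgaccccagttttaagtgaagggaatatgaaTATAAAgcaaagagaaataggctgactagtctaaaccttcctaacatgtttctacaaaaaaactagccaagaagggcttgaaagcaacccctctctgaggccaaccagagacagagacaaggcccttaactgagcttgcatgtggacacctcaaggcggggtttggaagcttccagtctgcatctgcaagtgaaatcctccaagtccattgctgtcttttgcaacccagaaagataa
Sst: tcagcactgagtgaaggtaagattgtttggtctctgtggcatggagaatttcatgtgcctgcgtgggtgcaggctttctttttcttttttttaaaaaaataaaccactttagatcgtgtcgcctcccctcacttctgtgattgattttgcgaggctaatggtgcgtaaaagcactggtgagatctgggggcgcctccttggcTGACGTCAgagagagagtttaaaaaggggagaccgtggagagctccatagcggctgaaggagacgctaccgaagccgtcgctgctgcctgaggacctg
Npy: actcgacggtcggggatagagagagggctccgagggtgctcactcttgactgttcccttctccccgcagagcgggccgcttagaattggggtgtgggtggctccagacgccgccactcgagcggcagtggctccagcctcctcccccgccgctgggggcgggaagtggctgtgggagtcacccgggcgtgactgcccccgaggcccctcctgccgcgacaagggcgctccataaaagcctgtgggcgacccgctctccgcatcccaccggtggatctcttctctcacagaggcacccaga
The window of Chat held an E-box 98 bases before the start, a motif present in 7.15% of the 32851 promoter windows in the same table. Slc5a7 held a TATA box 187 bases before the start, and 13.6% of all windows hold that motif. Sst held a cAMP response element 48 bases before the start, against 1.79% of all windows. Slc18a3 and Npy held none of the 4 motifs, and their windows were 67.0% and 68.0% G or C, against 50.3% for Sst and 44.7% for Slc5a7. The LIM homeodomain core was in none of the 5 windows printed and in 5.29% of all windows. Nos1 was also called lower in R6/2 input RNA at 2 and 3 months, and its window, not printed, held none of the 4 motifs. That window, chr5:117866589-117866888, lies inside the Nos1 span given above and not at its first base.

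Per kilobase of exon, the peptide genes stood highest in WT input RNA at 2 months, with 108 CPM per kb for Sst and 79.4 for Npy. Pvalb followed at 29.3 CPM per kb, then Slc5a7 at 8.53, Chat at 6.30, Slc18a3 at 4.23, Nos1 at 3.12 and Calb2 at 1.34. In WT IP RNA at the same age the order was Sst with 410 CPM per kb, Npy with 295, Slc5a7 with 44.9, Nos1 with 37.0, Chat with 35.0, Slc18a3 with 20.2, Pvalb with 14.4 and Calb2 with 2.29. Nos1 was above Pvalb in IP and below it in input in each of the 6 control groups. Nos1 and Chat differed in WT IP at 2 months by less than the SD of either. In the other 5 control groups Chat had the higher mean in IP. In WT at 12 months and NCAR at 1 and 2 months that difference was less than the larger SD. In input Chat was above Nos1 in all 6. Exon length here is the union of all exons annotated for a gene, 11.151 kb for Nos1 and 4.703 kb for Chat. Without division by length Nos1 stood above Chat in WT at 2 months, at 34.8 against 29.6 CPM in input and 412 against 165 CPM in IP. Calb2 was the sparsest, with 44 to 311 reads in an input library, and Slc18a3 had 119 to 625 reads there.

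IP RNA was richer than input RNA in 6 of the 8 genes in all 12 groups of mice, and poorer in Pvalb in most. Nos1 stood highest in IP relative to input, at 6.75 to 13.5 times its input level, Chat was 3.57 to 6.71 times higher and Slc18a3 3.39 to 7.34 times. Slc5a7 was 3.38 to 5.96 times higher, Sst 2.65 to 6.43 times and Npy 2.48 to 6.69 times. For these 6 genes the IP and input libraries of a group did not overlap in any group. Differences between IP and input were common, with 55% (R6/2 at 3 months) to 79.6% (WT at 2 months) of all genes called in either direction. The share of all genes without overlap was not counted, for these comparisons or for those of genotypes and ages below.

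The WT mice at 2 months show the pattern by library. Nos1 had 395, 374, 459 and 421 CPM in WT IP libraries, against 34.4, 36.7, 34.4 and 33.9 CPM in WT input libraries, a log2 change of 3.55 ± 0.06 (adjusted p = 7.95e-11). Slc5a7 had 244, 221, 280 and 270 CPM in WT IP libraries, against 51.2, 52.8, 43.1 and 45.5 CPM in WT input libraries, a change of 2.38 ± 0.08 (adjusted p = 1.6e-09). Every IP library was above every input library for both genes. Sst had 293, 255, 296 and 338 CPM in WT IP libraries, against 76.2, 79.7, 82.1 and 73.2 CPM in WT input libraries, a change of 1.91 ± 0.07 (adjusted p = 3.1e-09). Pvalb went the other way, with 15.1, 27.7, 9.45 and 7.79 CPM in WT IP libraries against 31.1, 29.8, 31.5 and 29.7 CPM in WT input libraries, a change of -1.22 ± 0.32 (adjusted p = 0.0051). Its IP values were scattered, and all 4 lay below the lowest input library.

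**Figure D1:**
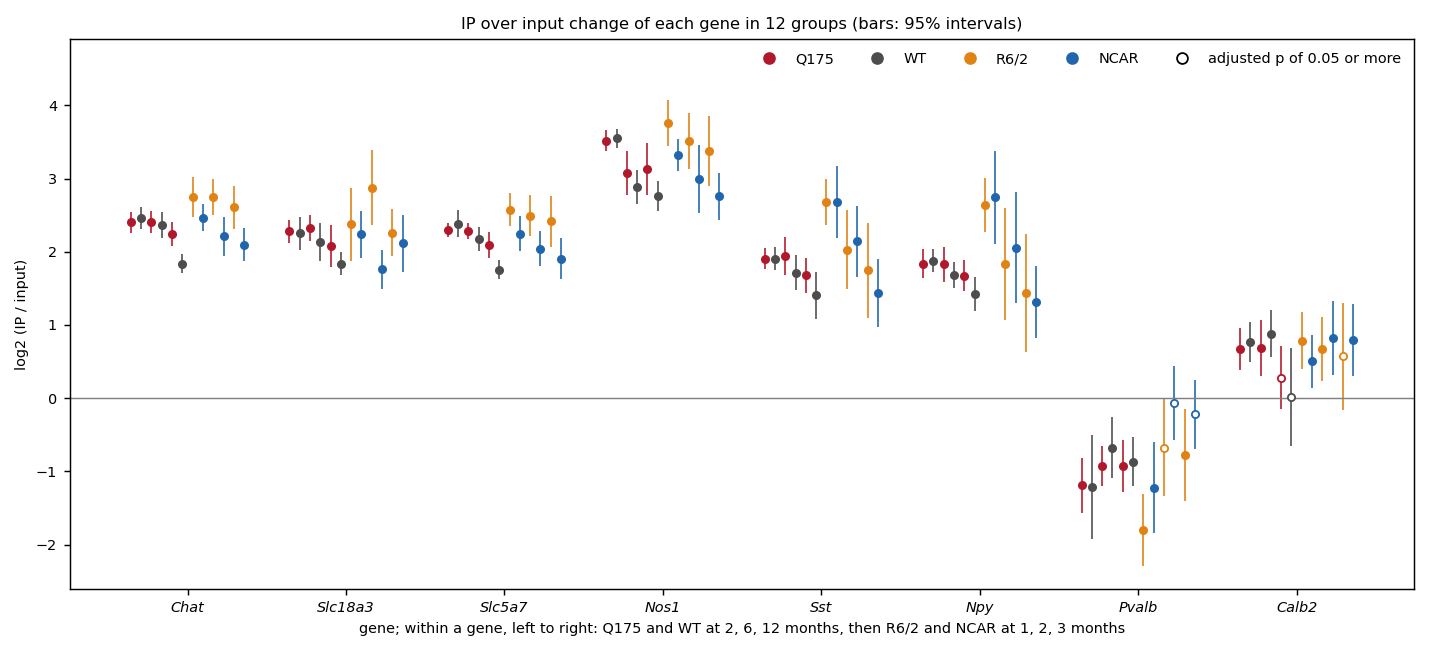
The vertical axis is the log2 change of IP over input for each gene, 1 point for each of 12 groups of mice with a bar for the 95% interval; open points had an adjusted p of 0.05 or more. Nos1 stands highest, between 2.76 and 3.76, Pvalb lies below 0 in each group, and Calb2 lies between 0.02 and 0.88.

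Read against all genes, 7 of the 8 members were called higher in IP in Q175 mice at 2 and 6 months, where 38.1% and 36.5% of all genes tested were, and 6 at 12 months (35.9%). In WT mice 7 were called higher at 2 and 6 months (38.8% and 37.5% of all genes) and 6 at 12 months (37.9%). R6/2 mice gave 7 at 1 and 2 months (34.5% and 29%) and 6 at 3 months (27.3%). NCAR mice gave 7 at each age, against 34.9%, 27.3% and 29% of all genes at 1, 2 and 3 months. The member that fell short was Calb2, with adjusted p = 0.212 in Q175 and 0.958 in WT at 12 months and 0.167 in R6/2 at 3 months. Calb2 in Q175 mice at 6 months also missed the threshold, at 0.39 with adjusted p = 0.0568, when the libraries were scaled as deposited.

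The only member called lower in IP was Pvalb, in 9 of the 12 groups. These were Q175 at 2, 6 and 12 months (40.3%, 39% and 38.4% of all genes were called lower), WT at the same ages (40.9%, 39.4% and 39.1%), R6/2 at 1 and 3 months (35.9% and 27.8%) and NCAR at 1 month (36.8%). In R6/2 mice at 3 months its groups overlapped, with 9.48, 8.89, 5.94 and 17.7 CPM in IP libraries and 21.6, 18.2, 14.4 and 14.7 CPM in input libraries. That call, -0.78 ± 0.28 with adjusted p = 0.0387, was lost without any 1 of 5 libraries, IP replicates 1, 2 and 3 and input replicates 1 and 2, with adjusted p of 0.077 to 0.104. Pvalb was not called in R6/2 mice at 2 months (-0.68) or in NCAR mice at 2 months (-0.07) and 3 months (-0.22); in R6/2 mice at 2 months it was called without IP replicate 1 (-0.83, adjusted p = 0.0434) and with all libraries of the run in 1 fit (-0.71, adjusted p = 0.0397).

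Between 0.109% and 0.592% of genes tested had a higher IP over input change than Nos1, which ranked between 18 and 93. The range was 0.882% to 4.14% for Chat, 1.32% to 6.35% for Slc18a3, 1.69% to 5.55% for Slc5a7, 2.98% to 8.07% for Sst and 2.7% to 9.45% for Npy. For Calb2 14.6% to 48.1% of genes stood higher, and for Pvalb 52.5% to 94.5%.

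Genes of other lists give the setting of these changes, with the 8 members left out of each list. Of 10 further cholinergic genes, 8 or 9 were higher in IP in each group of mice, and of 7 or 8 further genes of the nitric oxide, somatostatin and neuropeptide Y class 4 or 5 were. Of 10 further parvalbumin-class genes 4 to 9 were higher, with medians of 0.37 to 0.7, and of 7 further calretinin-class genes 4 or 5 were. Genes called lower in IP numbered 0 or 1 in the cholinergic and parvalbumin lists and 1 or 2 in the other 2. A list of 16 genes of interneuron development and GABA was mixed, with 6 to 9 higher, 1 to 5 lower and medians of 0.1 to 0.47. All 20 astrocyte genes were higher in IP in each of the 12 groups, with medians of 2.17 to 3.21. Of 23 medium spiny neuron genes 0 were higher and 21 to 23 were lower, with medians of -1.51 to -0.79. Of 8 septal and basal forebrain genes, which mark a neighbouring region that also holds cholinergic neurons, 5 to 7 were higher. The part of neighbouring tissue in these levels was not tested.

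**Figure D2:**
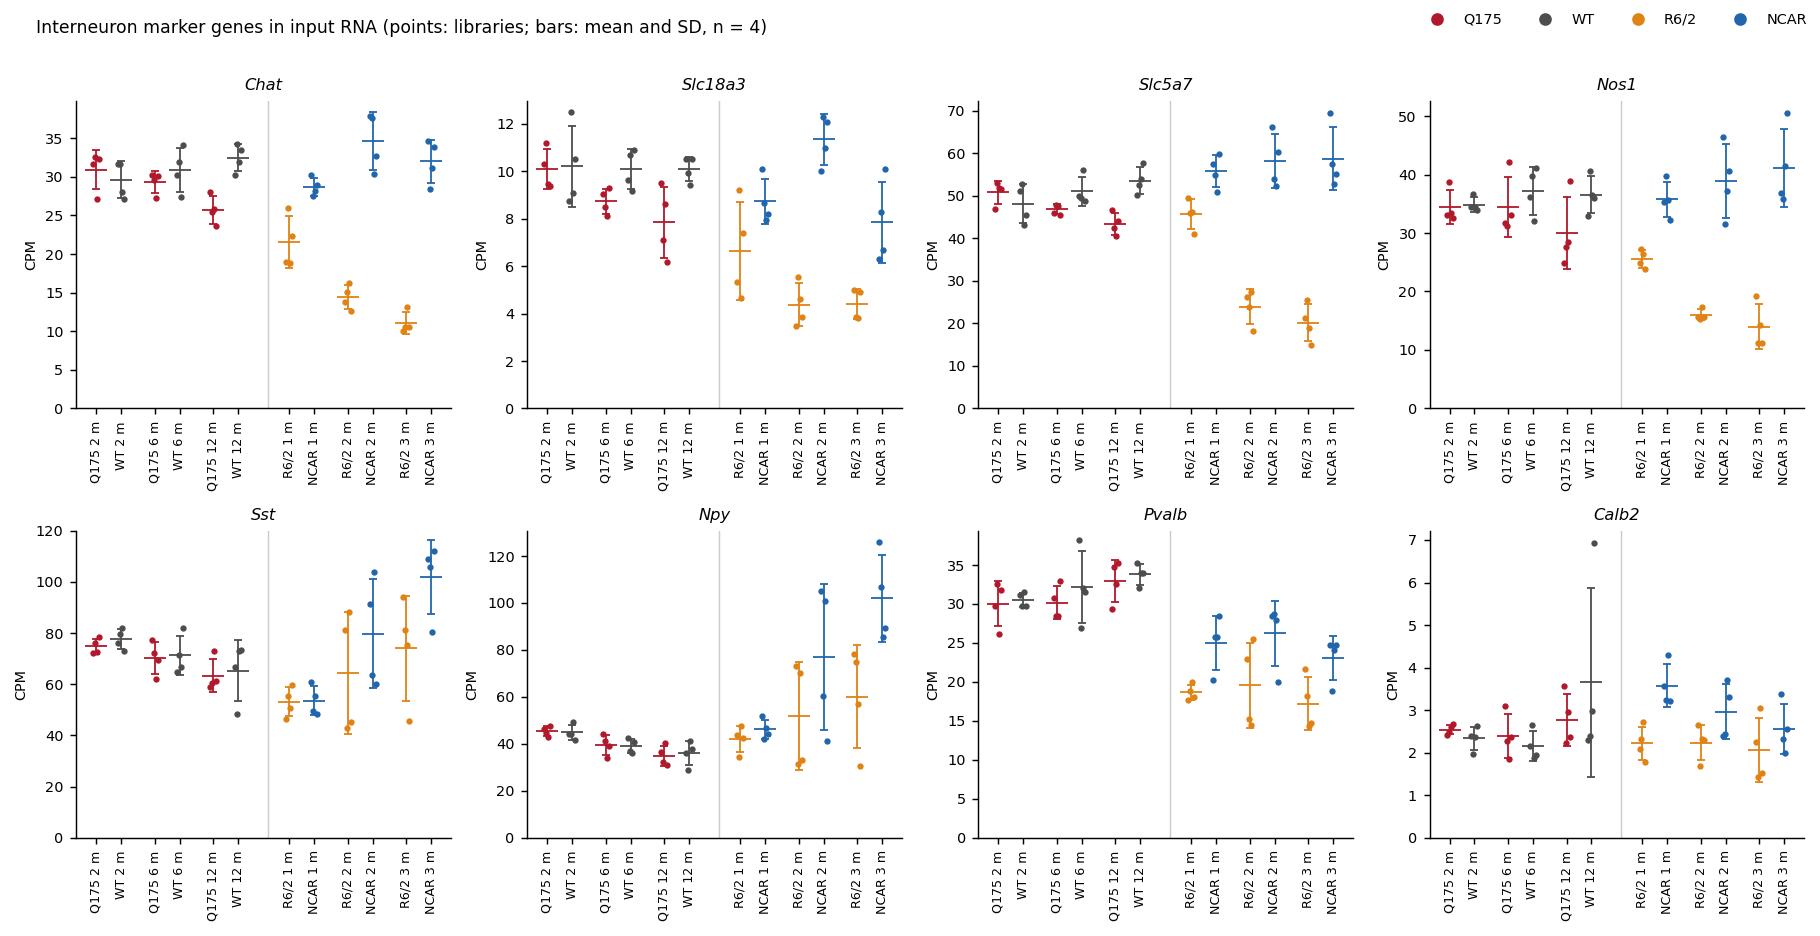
Each panel shows the CPM of 1 gene in the 48 input libraries, 1 point a library, with the mean and SD of 4 libraries for Q175 beside WT and R6/2 beside NCAR at each age. At 3 months Chat lies between 10.0 and 13.2 CPM in R6/2 libraries and between 28.4 and 34.6 CPM in NCAR libraries, while the Sst libraries of the 2 genotypes overlap.

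In R6/2 input RNA the cholinergic genes and Nos1 fell, and at 2 and 3 months Chat, Slc5a7 and Nos1 stood at 33.0% to 41.8% of NCAR. Sst was not called at any age. The number of members called lower was 5 of 8 at 1 month, where 7.74% of all genes tested were called lower, 4 of 8 at 2 months (9.66%) and 6 of 8 at 3 months (16.3%). All 24 changes of the 8 members over the 3 ages were negative, between -1.6 and -0.01, and 15 were called. Where libraries of the 2 genotypes are said not to overlap, here and in IP, how many of all genes did the same was not counted.

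At 3 months Chat had 10.0, 10.5, 13.2 and 10.5 CPM in R6/2 input libraries, against 34.6, 28.4, 31.1 and 33.9 CPM in NCAR input libraries. The change was -1.55 ± 0.12 with a 95% interval of -1.83 to -1.28 (adjusted p = 1.58e-05), and every R6/2 library was well below every NCAR library. Slc5a7 had 21.3, 25.6, 18.9 and 15.0 CPM in R6/2 input libraries, against 69.5, 57.6, 52.8 and 55.2 CPM in NCAR input libraries, a change of -1.58 ± 0.15 (adjusted p = 5.39e-05). Nos1 had 19.3, 11.2, 14.2 and 11.2 CPM in R6/2 input libraries, against 36.9, 35.8, 41.5 and 50.5 CPM in NCAR input libraries, a change of -1.6 ± 0.18 (adjusted p = 0.000154). Neither gene had a library of one genotype within the range of the other. Slc18a3 had 5.01, 3.86, 3.82 and 4.92 CPM in R6/2 input libraries, against 6.32, 8.27, 6.68 and 10.1 CPM in NCAR input libraries. Its change of -0.84 ± 0.2 (adjusted p = 0.0112) came without overlap, on fewer reads than the other cholinergic genes.

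The peptide genes differed in their calls at 3 months. Npy had 78.1, 74.8, 57.0 and 30.5 CPM in R6/2 input libraries, against 126, 107, 85.6 and 89.5 CPM in NCAR input libraries, a change of -0.85 ± 0.25 (adjusted p = 0.029), with no overlap. The Npy call was lost without NCAR replicate 1 (adjusted p = 0.068), NCAR replicate 2 (0.0718) or R6/2 replicate 3 (0.0587), and when all libraries of the run were fitted together (0.0781). Sst had 94.2, 81.4, 75.2 and 45.7 CPM in R6/2 input libraries, against 109, 106, 80.6 and 112 CPM in NCAR input libraries, and its groups overlapped. The Sst change was -0.52 with an interval of -0.95 to -0.09 (adjusted p = 0.0705), and it was called without R6/2 replicate 1 (-0.64, adjusted p = 0.0367). Pvalb had 21.6, 18.2, 14.4 and 14.7 CPM in R6/2 input libraries, against 24.7, 18.8, 24.1 and 24.7 CPM in NCAR input libraries, and the groups overlapped. Its change of -0.45 ± 0.15 was called at adjusted p = 0.0479 and lost without any 1 of 6 libraries, R6/2 replicates 2, 3 and 4 and NCAR replicates 1, 3 and 4, with adjusted p of 0.0707 to 0.131. Under 3 other settings its adjusted p was 0.0568 to 0.0898. Calb2 was at 2.07 CPM in R6/2 input and 2.56 CPM in NCAR input (adjusted p = 0.39).

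At 2 months the same 3 cholinergic genes and Nos1 were called. Chat had 13.8, 15.1, 16.2 and 12.6 CPM in R6/2 input libraries, against 37.9, 37.6, 30.4 and 32.7 CPM in NCAR input libraries, a change of -1.26 ± 0.12 (adjusted p = 0.000165). Slc18a3 had 3.48, 5.53, 4.63 and 3.84 CPM in R6/2 input libraries, against 10.0, 12.3, 11.0 and 12.1 CPM in NCAR input libraries, a change of -1.39 ± 0.17 (adjusted p = 0.000677). Both genes were lower in every R6/2 library than in any NCAR library. Slc5a7 averaged 23.9 CPM in R6/2 and 58.1 CPM in NCAR, a change of -1.28 ± 0.14 (adjusted p = 0.000365). Nos1 averaged 16.0 CPM in R6/2 and 38.9 CPM in NCAR, a change of -1.26 ± 0.13 (adjusted p = 0.000259). The remaining members were not called, with changes of -0.34 for Sst, -0.57 for Npy, -0.45 for Pvalb and -0.39 for Calb2. Their intervals were wide, from -1.4 to 0.26 for Npy and from -0.94 to 0.27 for Sst, so that a fall of the size seen in Chat lies within the interval of Npy but not of Sst.

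At 1 month Nos1 had 24.8, 27.2, 26.4 and 23.8 CPM in R6/2 input libraries, against 35.3, 39.7, 35.7 and 32.3 CPM in NCAR input libraries, a change of -0.48 ± 0.08 (adjusted p = 0.0034) that held without any 1 library. Chat had 19.0, 26.0, 18.8 and 22.3 CPM in R6/2 input libraries, against 30.2, 27.5, 28.2 and 29.0 CPM in NCAR input libraries, a change of -0.43 ± 0.1 (adjusted p = 0.0206). The libraries of the 2 genotypes did not overlap for either gene, and the Chat call was lost without NCAR replicate 4 (adjusted p = 0.0592). Slc5a7 (-0.29 ± 0.07, adjusted p = 0.0309), Pvalb (-0.41 ± 0.1, adjusted p = 0.0265) and Calb2 (-0.69 ± 0.18, adjusted p = 0.032) were also called, again with no overlap. Each of these 3 calls depended on single libraries. The Slc5a7 call was lost without any 1 of 6 libraries, all except R6/2 replicate 1 and NCAR replicate 3 (adjusted p of 0.0511 to 0.0975), and the Pvalb call without any 1 of 6, all except R6/2 replicate 3 and NCAR replicate 1 (0.0532 to 0.0841). The Calb2 call was lost without any 1 of 7, all except R6/2 replicate 3 (0.0574 to 0.0974). Slc18a3 was not called at this age (-0.44, adjusted p = 0.171). It averaged 6.64 CPM in R6/2 and 8.74 CPM in NCAR, and its libraries overlapped. Sst was close to level, with 53.3 CPM in R6/2 and 53.6 CPM in NCAR and an interval of -0.21 to 0.2. Age and deposited table cannot be told apart between 1 month and the later ages of this line.

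In R6/2 IP RNA Chat and Slc5a7 were called lower at 2 and 3 months, and Slc18a3 and Nos1 at 3 months only. Of the 8 members 0 were called at 1 month by limma (2 at an unadjusted p under 0.05, Pvalb and Calb2, and 0 with voom weights), where 0.0794% of all genes were called. At 2 months 2 of 8 were called lower (4.49% of all genes) and at 3 months 4 of 8 (9.32%). Of the 24 changes over the 3 ages, 23 were negative. The exception was Slc5a7 at 1 month, close to level at 0.03, with 271 CPM in R6/2 and 269 CPM in NCAR.

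Slc5a7 at 2 months had 129, 134, 125 and 132 CPM in R6/2 IP libraries, against 247, 208, 263 and 246 CPM in NCAR IP libraries, a change of -0.88 ± 0.09 (adjusted p = 0.00104). Chat at 2 months had 89.3, 99.3, 85.9 and 104 CPM in R6/2 IP libraries, against 137, 152, 178 and 181 CPM in NCAR IP libraries, a change of -0.76 ± 0.11 (adjusted p = 0.00498). The genotypes did not overlap for either gene. Slc18a3 at 2 months had 20.0, 40.8, 29.8 and 37.4 CPM in R6/2 IP libraries, against 33.0, 40.5, 41.4 and 40.7 CPM in NCAR IP libraries. Its change of -0.32 was not called, and the genotypes overlapped. At 3 months Chat had 55.2, 70.5, 62.6 and 75.7 CPM in R6/2 IP libraries, against 119, 151, 147 and 128 CPM in NCAR IP libraries, a change of -1.04 ± 0.12 (adjusted p = 0.00108). Slc5a7 fell by 1.06 on the log2 scale (104 CPM in R6/2, 219 CPM in NCAR, adjusted p = 0.00144), and Slc18a3 by 0.69 (20.6 CPM in R6/2, 33.5 CPM in NCAR, adjusted p = 0.00955). All 3 were without overlap between genotypes at that age. Nos1 at 3 months had 130, 119, 204 and 115 CPM in R6/2 IP libraries, against 307, 305, 221 and 270 CPM in NCAR IP libraries, a change of -0.98 ± 0.19 (adjusted p = 0.0107). R6/2 replicate 3 came nearest to the NCAR range without reaching it.

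The GABAergic markers other than Nos1 were not called in R6/2 IP, and their spread was large. Pvalb was at about the same ratio at each age, -1.0, -1.1 and -1.01 at 1, 2 and 3 months, with adjusted p of 0.304, 0.0703 and 0.06. At 2 months Pvalb had 16.0, 6.41, 12.0 and 14.7 CPM in R6/2 IP libraries, against 15.8, 34.2, 29.3 and 24.4 CPM in NCAR IP libraries, and the groups overlapped only through NCAR replicate 1 and R6/2 replicate 1. At 3 months Pvalb was called without R6/2 replicate 4 (-1.29, adjusted p = 0.022), as was Calb2 (-0.83, adjusted p = 0.0441). Npy at 3 months had 91.5, 107, 257 and 199 CPM in R6/2 IP libraries, against 234, 329, 160 and 312 CPM in NCAR IP libraries, with an interval of -1.49 to 0.03. NCAR replicate 2 at 2 months was low in several of these genes, with 172 CPM of Npy, 239 of Sst and 220 of Nos1. Without it 4 more members were called at 2 months, Npy (-1.11, adjusted p = 0.0285), Sst (-0.68, 0.0181), Nos1 (-0.95, 0.0316) and Calb2 (-0.73, 0.0333).

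**Figure D3:**
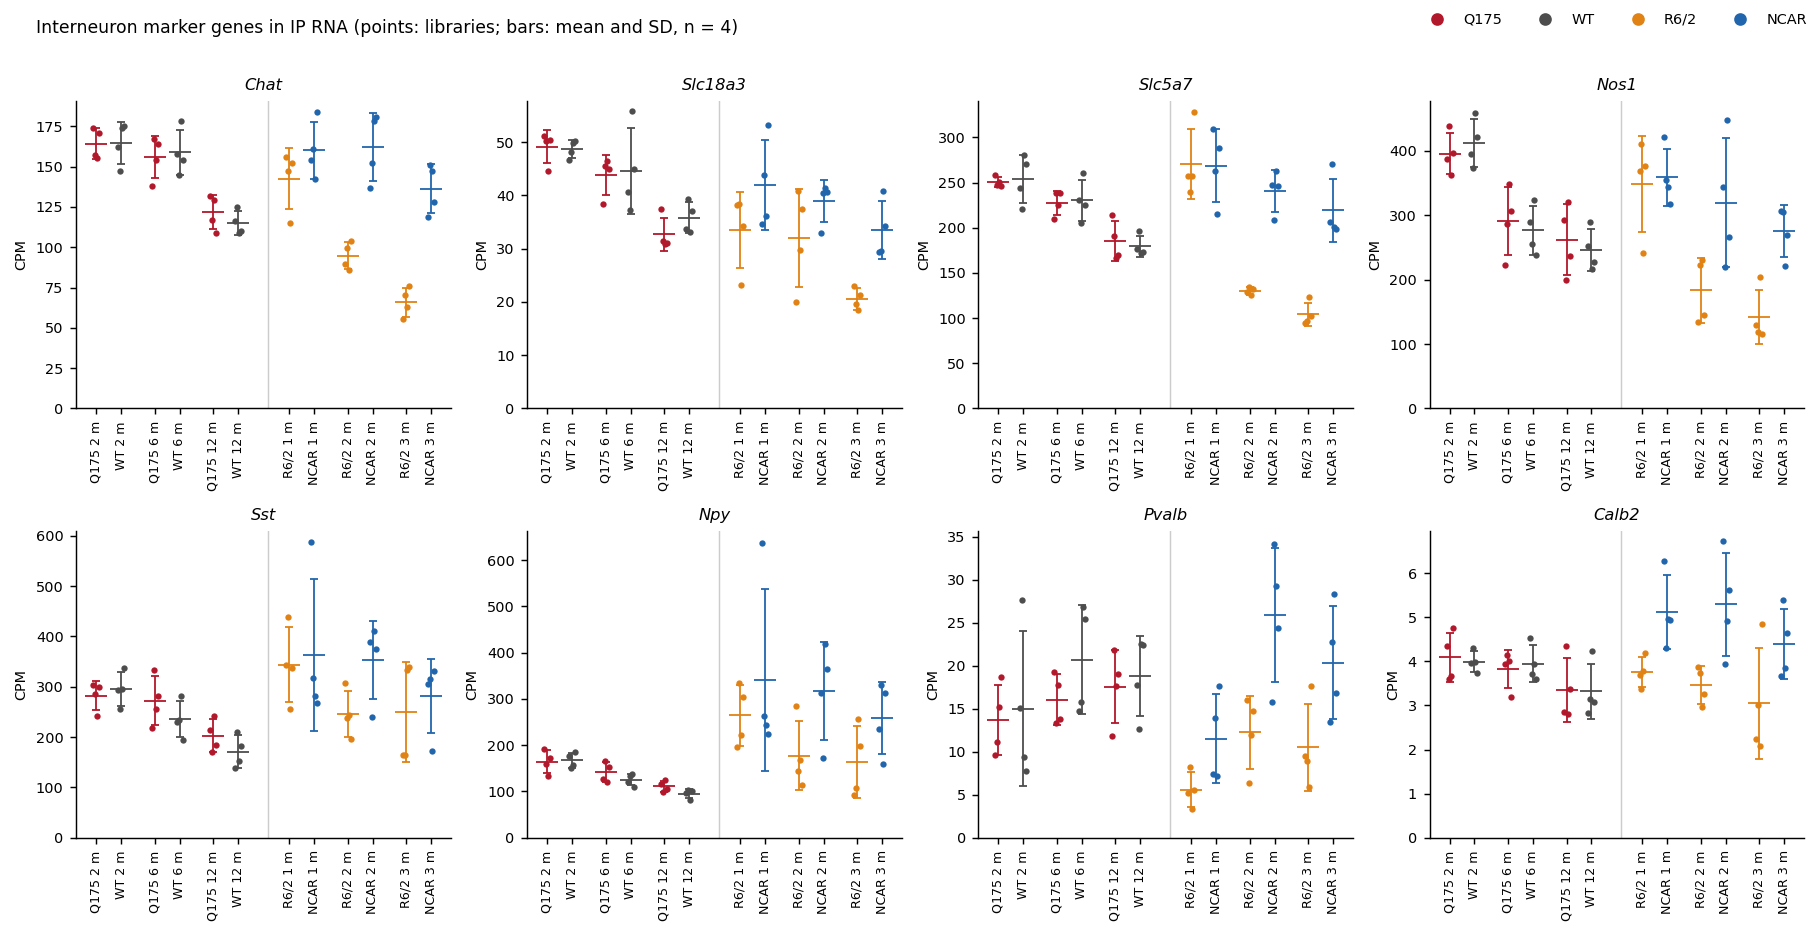
Each panel shows the CPM of 1 gene in the 48 IP libraries, 1 point a library, with the mean and SD of 4 libraries for Q175 beside WT and R6/2 beside NCAR at each age. Chat, Slc5a7 and Nos1 are lower in R6/2 libraries at 3 months, with means of 66.0, 104 and 142 CPM against 136, 219 and 276 CPM in NCAR libraries, and 1 NCAR library at 1 month stands apart in Sst and Npy at 588 and 636 CPM.

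Further genes of the cholinergic, parvalbumin and calretinin lists were called lower in R6/2 mice, and 1 of the list that holds Nos1, Sst and Npy. Of 10 further cholinergic genes 1, 5 and 6 were called lower in input at 1, 2 and 3 months and 0, 3 and 6 in IP. In input 1 of these 10 was called higher at each age, and in IP 0 were. In input at 3 months Tacr1, the substance P receptor carried by cholinergic and Nos1 interneurons, fell by 1.38 on the log2 scale (adjusted p = 0.000298), and Slc17a8, a vesicular glutamate transporter of cholinergic interneurons, by 1.13 (adjusted p = 0.000572). Lhx8, a LIM homeodomain factor of cholinergic neurons, fell by 0.69 at 2 months (adjusted p = 0.00635), whereas Isl1, another LIM homeodomain factor that medium spiny neurons also use in development, rose by 0.66 at 3 months (adjusted p = 0.000989). Of 10 further parvalbumin-class genes 4, 6 and 5 were called lower in input at 1, 2 and 3 months and 0, 3 and 6 in IP. Pthlh, the parathyroid hormone-like peptide of these cells, changed by -1.83 ± 0.29 in input at 3 months (adjusted p = 0.00107) and by -2.7 ± 0.23 in IP (adjusted p = 0.000293), and Syt2, a synaptotagmin of fast synapses, by -1.62 ± 0.11 in input (adjusted p = 7.01e-06). Of 7 or 8 further genes of the nitric oxide, somatostatin and neuropeptide Y class 1 was lower in input at each age, Tacr1, which is also on the cholinergic list. Over the 3 ages 0 or 1 gene of that class was called higher in input, and 0 of the parvalbumin and calretinin lists were. Of 7 further genes of the calretinin class 4, 3 and 4 were lower in input at 1, 2 and 3 months, among them Th, tyrosine hydroxylase, with -0.91 ± 0.2 at 3 months (adjusted p = 0.00804). Cnr1 of that list is also abundant in medium spiny neurons. Of 16 genes of interneuron development and GABA 1 to 5 were lower and 0 or 1 higher in input, with medians of -0.15 to -0.1. In IP 0 to 3 of them were lower and 0 higher.

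Other cell types moved at the same time. Of 23 medium spiny neuron genes 21, 19 and 21 were lower in R6/2 input at 1, 2 and 3 months, with medians of -0.77, -1.25 and -1.36, while the median over all genes tested was between 0 and 0.03. Of 20 pan-neuronal genes 5 were lower at each age and 3, 1 and 5 higher, and their summed level in input at 3 months averaged 7890 CPM in R6/2 and 9290 CPM in NCAR. Of 8 septal and basal forebrain genes 1, 1 and 2 were lower and 0, 1 and 1 higher in input at 1, 2 and 3 months, and their summed level at 3 months averaged 81.4 CPM in R6/2 and 87.7 CPM in NCAR. At 3 months 14 of 20 astrocyte genes were lower and 1 higher in input, and 11 of 12 microglial genes were lower. In R6/2 IP over the 3 ages 3 to 20 of 23 medium spiny neuron genes were lower, with medians of -1.27 to -0.39. Of 20 pan-neuronal genes 0 to 6 were lower and 0 or 1 higher in IP. The part of these other cell types in the changes of the members was not tested.

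**Figure D4:**
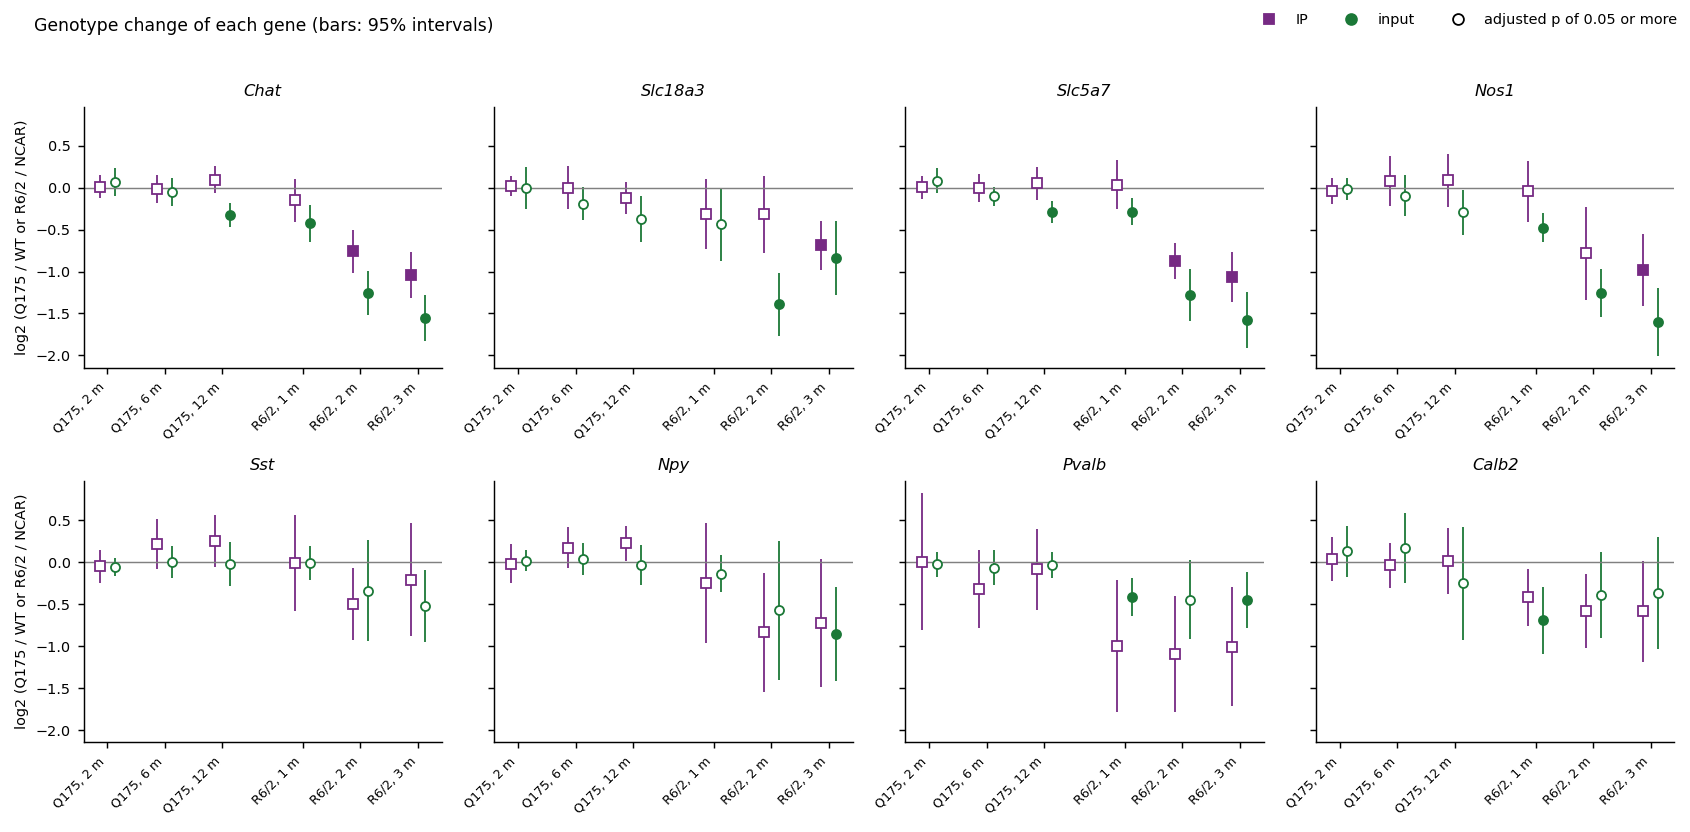
Each panel shows the log2 change of 1 gene, Q175 over WT at 2, 6 and 12 months and R6/2 over NCAR at 1, 2 and 3 months, as squares for IP and circles for input with 95% intervals; open symbols had an adjusted p of 0.05 or more. Chat and Slc5a7 in R6/2 input reach -1.55 and -1.58 at 3 months, and in Q175 input -0.33 and -0.29 at 12 months, while the Q175 IP changes of both genes lie between -0.02 and 0.09.

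In Q175 mice Chat and Slc5a7 fell in input RNA at 12 months, and no other call was made for the 8 members in either RNA type. By limma 0 of 8 were called in Q175 input at 2 months, where 0.00652% of all genes were called, and 0 at 6 months (13.9%), with 0 at an unadjusted p under 0.05 and 0 with voom weights at both ages. At 12 months 2 of 8 were called lower, against 11.7% of all genes. Chat had 28.0, 25.5, 25.9 and 23.6 CPM in Q175 input libraries at 12 months, against 30.3, 34.3, 31.9 and 33.5 CPM in WT input libraries, a change of -0.33 ± 0.07 (adjusted p = 0.00493). Slc5a7 had 46.7, 42.5, 40.6 and 44.1 CPM in Q175 input libraries, against 50.1, 52.5, 53.9 and 57.7 CPM in WT input libraries, a change of -0.29 ± 0.06 (adjusted p = 0.00538). All Q175 libraries were below all WT libraries for both genes, at 79.6% and 81.5% of the WT level. Of the 2855 genes called in this comparison 36.1% were higher; with the libraries scaled as deposited 72.6% of 4405 were, and both genes were still called lower. Over the 3 ages in Q175 input 0 or 1 of 10 further cholinergic genes was called lower and 0 or 1 higher, with medians of -0.09 to 0.05. For the parvalbumin list 0 to 2 were lower and 0 or 1 higher, with medians of -0.34 to 0.0. For the calretinin list 0 to 3 were lower and 0 or 1 higher, with medians of -0.39 to -0.13.

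Slc18a3 and Nos1 lay close to the threshold in Q175 input at 12 months. Slc18a3 had 9.52, 7.09, 8.64 and 6.19 CPM in Q175 input libraries, against 10.5, 9.95, 9.44 and 10.5 CPM in WT input libraries, a change of -0.37 ± 0.12 (adjusted p = 0.0578), and 1 Q175 library lay within the WT range. It was called without Q175 replicate 1 (-0.45, adjusted p = 0.0237) and when all libraries of the run were fitted together (-0.36, adjusted p = 0.0267). Nos1 had 24.8, 27.6, 28.5 and 38.9 CPM in Q175 input libraries, against 32.9, 40.6, 36.5 and 36.0 CPM in WT input libraries, a change of -0.3 ± 0.12 (adjusted p = 0.118). Q175 replicate 4 stood among the WT values, and without it Nos1 was called (-0.42, adjusted p = 0.00767). The summed cortical excitatory neuron genes in that library were 137 CPM, against 77.2 to 82.4 CPM in the other Q175 input libraries at 12 months, and their part in the Nos1 value was not tested. Sst, Npy and Pvalb were close to WT at 12 months, with intervals of -0.29 to 0.24, -0.27 to 0.2 and -0.18 to 0.12.

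Q175 IP RNA gave 0 called members of 8 by limma at 2, 6 and 12 months, where 0.0199%, 3.8% and 6.97% of all genes were called; the counts at an unadjusted p under 0.05 were 0, 0 and 1, and voom weights gave 0. The gene at 12 months was Npy, with 116, 97.8, 124 and 105 CPM in Q175 IP libraries, against 95.9, 104, 80.9 and 100 CPM in WT IP libraries (0.23 ± 0.09, adjusted p = 0.191), and these overlapped. Chat at 12 months had 132, 117, 129 and 109 CPM in Q175 IP libraries, against 116, 125, 109 and 110 CPM in WT IP libraries, which overlapped, and its interval was -0.07 to 0.25. In the same mice 20 of 23 medium spiny neuron genes were lower in IP at 12 months, with a median of -1.03, and 21 in input, with a median of -0.85.

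Whether a genotype change differed between IP and input was tested directly, and limma called 0 of 8 members at any age. In Q175 mice at 2, 6 and 12 months 0.00643%, 0.0895% and 0.121% of all genes were called, and the members at an unadjusted p under 0.05 were 0, 0 and 2. In R6/2 mice at 1, 2 and 3 months 0%, 0.0577% and 0.154% of all genes were called, and 1, 3 and 3 members had an unadjusted p under 0.05; voom weights gave 0 in each case. The difference for Chat, IP change minus input change, was 0.42 ± 0.1 in Q175 mice at 12 months (adjusted p = 0.174) and 0.54 ± 0.17 in R6/2 mice at 3 months (adjusted p = 0.313). For Slc18a3 in R6/2 mice at 2 months it was 1.08 ± 0.27 (adjusted p = 0.17), and without R6/2 IP replicate 1, which had the lowest Slc18a3 level of its group at 20.0 CPM, it was 1.28 and called (adjusted p = 0.0387). The unadjusted 95% intervals of these 3 differences were 0.21 to 0.63, 0.19 to 0.9 and 0.5 to 1.66.

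The genotype change of Chat and Slc5a7 in Q175 input also differed between ages. Between 12 and 2 months the change shifted by -0.39 ± 0.1 for Chat (adjusted p = 0.0196) and by -0.37 ± 0.09 for Slc5a7 (adjusted p = 0.0146), 2 of 8 members against 6.67% of all genes called in that direction. With the libraries scaled as deposited the shifts were -0.3 and -0.28 and missed the threshold (adjusted p = 0.0604 and 0.053), and without Q175 replicate 4 at 12 months Nos1 was called as well (adjusted p = 0.0267). The levels behind the shift for Chat were 25.8 CPM in Q175 and 32.5 CPM in WT at 12 months, and 31.0 CPM in Q175 and 29.6 CPM in WT at 2 months. In Q175 IP 0 of 8 members differed between these ages (2.48% of all genes), with 0 at an unadjusted p under 0.05. In R6/2 mice, 3 against 2 months, 0 were called in IP (0% of all genes) and 0 in input (0%), with 0 and 1 at an unadjusted p under 0.05, and voom weights gave 0 in each.

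Age itself moved the members most in the IP RNA of the Q175 line. In WT IP 6 of 8 were lower at 12 than at 2 months, against 14.2% of all genes, and in Q175 IP the same 6 were, against 12.4%. Npy had 95.9, 104, 80.9 and 100 CPM in WT IP libraries at 12 months, against 176, 150, 157 and 185 CPM at 2 months, a change of -0.79 ± 0.09 (adjusted p = 0.000413). Sst changed by -0.78 ± 0.13 (adjusted p = 0.00218) and Nos1 by -0.73 ± 0.09 (adjusted p = 0.000745) in WT IP. None of these 3 genes overlapped between the ages. The cholinergic genes in WT IP fell by 0.50 (Chat), 0.43 (Slc18a3) and 0.48 (Slc5a7) on the log2 scale. In Q175 IP the 6 changes were between -0.58 for Nos1 and -0.39 for Chat, and of these Sst overlapped between the ages. Pvalb (0.48) and Calb2 (-0.27) were not called in WT IP, but Pvalb was without replicate 2 at 2 months (0.84, adjusted p = 0.0387) and Calb2 without replicate 3 at 12 months (-0.38, adjusted p = 0.0308). Of 20 astrocyte genes 14 were lower in WT IP at 12 months and 9 in Q175 IP, with medians of -0.38 and -0.32, and of 10 further cholinergic genes 10 and 7 were lower, with medians of -0.52 and -0.41. The part of the astrocyte change in the members' values was not tested.

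In input RNA the age changes were smaller. In Q175 input 5 of 8 members were called lower at 12 than at 2 months, against 20.2% of all genes, from -0.38 for Slc18a3 and Npy to -0.22 for Slc5a7. With the deposited scaling, which moved the median of all genes by 0.16, only Npy of these 5 was still called, and Chat (-0.12), Slc18a3 (-0.24), Slc5a7 (-0.09) and Sst (-0.1) were not, while Pvalb was called higher (0.27, adjusted p = 0.0143). Sst also missed the threshold with all libraries of the run in 1 fit (adjusted p = 0.0654). Slc18a3 was also lost without Q175 replicate 1 or 2 at 2 months or replicate 2 or 4 at 12 months, with adjusted p of 0.0634 to 0.0946, and Nos1 was called without replicate 4 at 12 months (-0.35, adjusted p = 0.0043). In WT input 1 of 8 was called lower, Npy at -0.34 ± 0.1 (adjusted p = 0.0248), against 11.8% of all genes, and it was lost without replicate 1 at 12 months (adjusted p = 0.0512), replicate 2 (0.0544) or 3 (0.0616) at 2 months, or with the deposited scaling (0.0531). Pvalb in WT input (0.14, adjusted p = 0.0669) was called higher without replicate 2 at 12 months (0.16, adjusted p = 0.0432) and with the deposited scaling (0.19, adjusted p = 0.0234). Between 3 and 2 months limma called 0 members and 0% of all genes in each of R6/2 IP, NCAR IP, R6/2 input and NCAR input, with 3, 0, 1 and 2 members at an unadjusted p under 0.05, and voom weights gave 0.

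Sst and Npy, which the same striatal interneurons often carry, varied together between input libraries of a group. This was not particular to the pair, as other genes, named below, were closer to each of them in the Q175 and WT libraries. Over the deviations of 24 Q175 and WT input libraries from their group means Pearson's r was 0.77 (permutation p = 0.00147, adjusted p = 0.0412) and Spearman's rho 0.67 (permutation p = 0.00382, adjusted p = 0.107). Over 24 R6/2 and NCAR input libraries r was 0.9 (permutation p = 0.00038, adjusted p = 0.0213) and rho 0.86 (permutation p = 0.00064, adjusted p = 0.0358). Without the 2 libraries farthest from the median of Sst, r was 0.71 and 0.85 in these sets. The p-values came from 100000 permutations within groups and were adjusted over the 56 relations computed, 28 pairs of members in each set. No other pair passed the adjustment; Chat with Slc18a3 had r = 0.55 (permutation p = 0.0163, adjusted p = 0.231) in Q175 and WT and 0.38 (permutation p = 0.164, adjusted p = 0.692) in R6/2 and NCAR.

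Single libraries show the same. In R6/2 input at 2 months replicates 1 and 3 held 81.4 and 88.4 CPM of Sst and 73.3 and 70.2 CPM of Npy, whereas replicates 2 and 4 held 42.8 and 45.3 CPM of Sst and 31.3 and 32.9 CPM of Npy. The summed pan-neuronal genes were 8760 and 9350 CPM in replicates 1 and 3 and 6440 and 6740 CPM in replicates 2 and 4. Chat did not follow that split, with 13.8 and 16.2 CPM in replicates 1 and 3 and 15.1 and 12.6 CPM in replicates 2 and 4. In NCAR IP at 1 month replicate 1 held 588 CPM of Sst and 636 CPM of Npy, against 267 to 317 and 225 to 262 CPM in the other 3. The summed cortical excitatory neuron genes in that library were 498 CPM, against 330 to 366 CPM in the others. The part of neuronal content or of neighbouring cortex in these values was not tested.

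**Figure D5:**
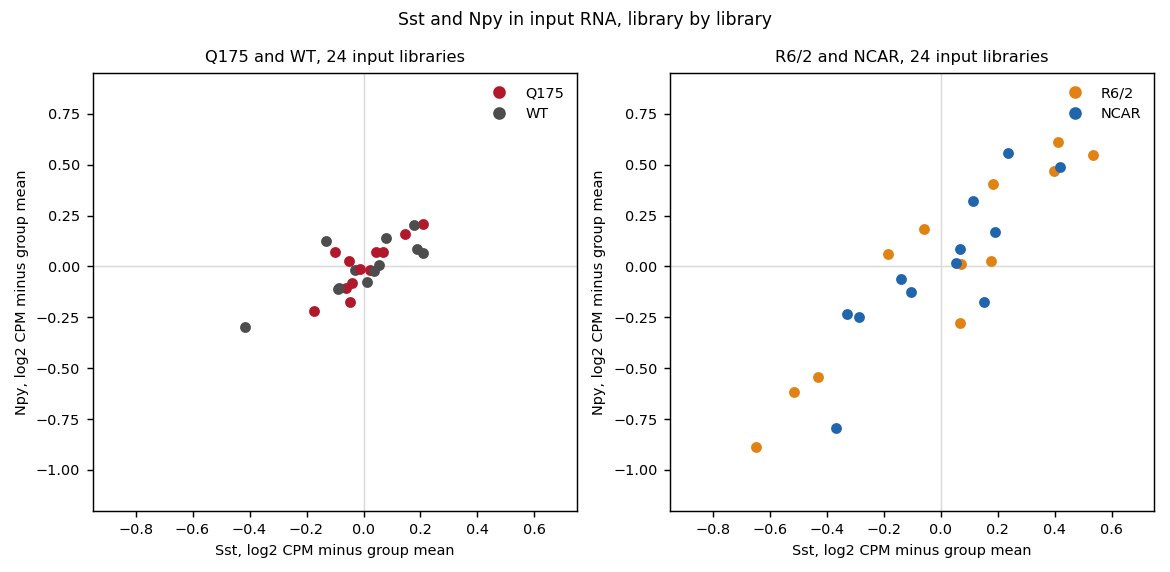
Each point is 1 input library, placed by its log2 CPM of Sst (horizontal) and of Npy (vertical) minus the mean of its group, with Q175 and WT in one panel and R6/2 and NCAR in the other. The points lie along a rising line in both panels, and the R6/2 and NCAR libraries spread further, from -0.65 to 0.53 for Sst and from -0.888 to 0.612 for Npy.

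Genes most alike to each member were taken by the correlation of these deviations over the 24 Q175 and WT input libraries, among 13477 genes, and are given as a description since the libraries share scaling and dissection. Nos1 was closest to Tnr, an extracellular matrix protein (r = 0.94), Nfasc, neurofascin (0.92), and Grin2b, an NMDA receptor subunit (0.91), which in R6/2 and NCAR libraries gave 0.18, 0.55 and 0.73. Npy was closest to Otub1 (0.91), Calm3, a calmodulin (0.9), and Eif5a (0.88), which gave 0.05, 0.91 and 0.68 in the R6/2 and NCAR libraries. Sst was closest to Gnptg (0.84), Maged1 (0.84) and Pygo1 (0.83), which gave -0.14, 0.4 and 0.9. In Q175 and WT libraries each gene named here for Npy and Sst stood above the 0.77 of Sst with Npy. In R6/2 and NCAR libraries that pair had 0.9, and of these genes only Calm3 with Npy and Pygo1 with Sst were as close. Chat was closest to Zswim5 (0.8), Cox18 (0.79) and Mapk8ip3 (0.78), which gave -0.03, 0.41 and 0.12, so that most of the nearest genes in one set of libraries were not close in the other. For Slc18a3 the closest were Usp10, Tbc1d10a and Ust at 0.74 each, which gave -0.05, 0.44 and -0.16 in R6/2 and NCAR libraries. For Slc5a7 the closest was Brox at 0.83, which gave -0.25 there. For Pvalb it was Adarb2 at 0.76 and for Calb2 Prpf19 at 0.86, which in R6/2 and NCAR libraries gave 0.44 and 0.12.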

How the data were processed

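RNA of 96 striatal libraries was compared, made per the labels' protocols from polyA RNA with TruSeq kits. The submitters' processing notes name STAR, HTSeq, edgeR and limma and the build mm10; versions and the use of strand are not given in the sources used here. The authors deposited log2 CPM in 3 tables, each with its own code, and the libraries of 1 table are called a run here. What the codes stand for was not established. Undoing the log gave whole reads within 0.01 for 100% of values in all 96 libraries. The prior found in the deposited values differed by library, from 0.1602 to 0.4436 reads.

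From these reads log2 CPM were computed with a prior of 0.25 reads, scaled by library size. Trimmed-mean (TMM) scaling was done inside each fit (30% of M, 5% of A trimmed). Tests used limma 3.58.1 in R 4.3.3 with an intensity trend. A gene entered a fit with at least 15 reads in all and the CPM that equals 10 reads at median depth in as many libraries as the smallest group has. Each contrast used its own 8 libraries, or 16 for an interaction. Intervals are 95% intervals of the log2 change. Printed levels use 1 scaling over a run. Groups came from the labels, and replicates were numbered in their order. The fits were tested on simulated data modelled on Q175 and WT libraries, with the same dispersion for every gene. The wider spread of R6/2 and NCAR libraries was not simulated. Alternatives were the deposited scaling, scaling over a run, 1 fit for a run, no filter, a prior of 2 reads, voom weights and leaving out each library.

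The members and the 13 gene lists were chosen with earlier results of these data known. Named are the 8 members, up to 3 most alike genes each (mean of at least 1 CPM, predicted-gene symbols passed over) and up to 4 genes of a list with the smallest p.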

Additional observations from a re-analysis of the deposited data

Results flagged for a closer look

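Of 192 sets of 4 libraries, 1 for each member and group, 18 had a library whose gap to its nearest neighbour exceeded Dixon's 95% critical share of the range for 4 values; chance flags about 1 in 20, or 9.6 of them. For Chat these were a low Q175 input library at 2 months (27.2 CPM, nearest 31.7) and a high R6/2 input library at 3 months (13.2, nearest 10.5). For Slc18a3 they were Q175 IP libraries at 12 months (37.4, nearest 31.4) and 2 months (44.5, nearest 50.3) and an NCAR IP library at 2 months (33.0, nearest 40.5). Slc5a7 stood apart in WT IP at 12 months (196, nearest 176), WT input at 6 months (56.0, nearest 49.9) and NCAR IP at 3 months (271, nearest 206). Nos1 did so in Q175 input at 2 months (38.7, nearest 33.5) and 6 months (42.1, nearest 33.0) and in R6/2 IP at 3 months (204, nearest 130).

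Sst stood apart in Q175 input at 12 months (73.0 CPM, nearest 61.2), NCAR IP at 1 month (588, nearest 317) and NCAR IP at 3 months (172, nearest 306). Npy stood apart in the same NCAR IP library at 1 month, replicate 1 (636, nearest 262). Pvalb was low in 1 NCAR input library at 2 months (20.0, nearest 27.9) and 1 at 3 months (18.8, nearest 24.1), and Calb2 was high in WT input at 12 months, replicate 4 (6.94, nearest 2.99).

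By the test of the difference itself, the genotype change in Q175 input differed between 12 and 2 months for Chat (-0.39) and Slc5a7 (-0.37).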

How the results depend on the processing

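Of the 336 changes of members tested, 186 were called neither as reported nor under any alternative. The remaining 150 did not turn their direction where called. They gave 900 values under other settings, of which 883 stayed on the same side of the threshold, 13 lost a call and 4 gained one, and 1232 values with 1 library left out, of which the numbers were 1175, 41 and 16. Among the counts of member calls, the 2 for genotype by age in Q175 became 0 with the deposited scaling, and the 2 for genotype in Q175 input became 3 with 1 fit for a run; the other counts moved by less than 1.5 times under each setting. With 1 library left out, the counts ranged from 2 to 4 (Pvalb lower in IP in R6/2 and NCAR, 3 in all), 6 to 10 (genotype in R6/2 IP, 6), 11 to 16 (genotype in R6/2 input, 15), 2 to 3 (genotype in Q175 input, 2), 0 to 1 (genotype by RNA type in R6/2, 0), 2 to 3 (genotype by age in Q175, 2) and 17 to 19 (age in Q175 and WT, 18).

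The deposited scaling put the median of all genes in IP over input between -0.33 and -0.26 in Q175 and WT (between -0.03 and -0.01 before), and moved the share called higher among called genes to 29.3% to 35.0% (48.3% to 49.2% before). In Q175 input it moved the genes called at 6 months to 3423 (2154 before, 72.1% against 38.5% of them higher) and at 12 months to 4405 (2855 before, 72.6% against 36.1%), and between ages in Q175 input the share higher to 78.4% (53.0% before). It moved the share higher, by age, to 65.2% in Q175 IP (50.1% before; 39.0% with scaling over the run), 58.6% in WT IP (44.8% before) and 72.5% in WT input (54.9% before). For Q175 over WT in IP it gave 20.3% at 6 months (8.54% before) and 53.0% at 12 months (31.5% before), and for genotype by age 31.5% in Q175 IP (20.8% before) and 60.4% in Q175 input (24.7% before). With 1 fit for a run, Q175 over WT in IP at 12 months called 1865 genes (1059 before), R6/2 over NCAR in IP at 2 months 1244 (842 before, 30.6% against 20.0% higher), and genotype by RNA type 28 and 57 in Q175 at 6 and 12 months (14 and 19 before) and 63 and 44 in R6/2 at 2 and 3 months (9 and 24 before). In Q175 and WT libraries the deposited library size was 1.0002 to 1.0004 times the reads, close to plain read totals. In R6/2 and NCAR libraries it was 0.8136 to 1.214 times the reads. The cause of the shifts above was not tested. No paired analysis was possible because the labels tie no library of one group to a library of another. Calb2 had the fewest reads of the 8 members, 44 in its lowest library.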
